A study of Mus musculus and Homo sapiens with 19 samples.

Results

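The 10 enzymes and carriers that make or deliver the sugar nucleotides UDP-N-acetylglucosamine (UDP-GlcNAc) and CMP-sialic acid were followed through all 19 libraries of a study on PHGDH in breast cancer cells. The members were chosen by name: a gene belonged to the set when its symbol was Gfpt1, Gfpt2, Gnpnat1, Pgm3, Uap1, Gne, Nans, Nanp, Cmas or Slc35a1, or the same name in upper case for human cells. All 10 members were found once in each count table, among 24421 genes in the knockdown table, 57992 in the MDA-MB-231 table and 55573 in the co-culture tables. The PHGDH enzyme opens the serine synthesis pathway.

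The knockdown experiment held 3 libraries of 4T1, a mouse mammary tumour line, with a scramble shRNA in the pLKO.1 vector (shSCR) and 3 with an shRNA against PHGDH (shPHGDH). The second experiment held 3 control libraries of the human breast cancer line MDA-MB-231 and 3 of the same line labelled as transduced with PHGDH cDNA in the vector pLHCX, whose PHGDH level ran against that label. The co-culture set held 1 library each of 4T1, EMT6.5 (another mouse mammary tumour line) and Bend3 (a mouse endothelial line) grown alone. It also held 1 library of each sorted partner of 2 joint cultures, 4T1 grown with Bend3 and EMT6.5 grown with Bend3. Whether the transduced cells were pools or single clones, and whether replicates were separate cultures, was not given in the sources used here, so the spread behind each p-value is that between libraries and may be technical.

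The hexosamine pathway branches from glycolysis at fructose 6-phosphate. The transaminases GFPT1 and GFPT2 take nitrogen from glutamine to make glucosamine 6-phosphate and set the pace of the pathway, GNPNAT1 adds the acetyl group, the mutase PGM3 moves the phosphate, and UAP1 joins the sugar to UDP. UDP-GlcNAc then serves protein glycosylation, hyaluronan and O-GlcNAc, and is the starting material for sialic acid: GNE makes and phosphorylates N-acetylmannosamine, NANS condenses it with phosphoenolpyruvate, the phosphatase NANP frees sialic acid, CMAS activates it with CMP in the nucleus, and SLC35A1 carries CMP-sialic acid into the Golgi, where it caps cell surface glycans.

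A few promoters are printed because the results turn on those genes: the 2 transaminase isozymes, of which Gfpt1 was counted in every mouse line and Gfpt2 in Bend3, and Uap1 and Gne, which were both lower in shPHGDH cells and in both co-cultured tumour lines. Each run covers 250 bases before and 50 after a transcript start, 5′ to 3′ on the gene's strand, from RefSeq on GRCm38.p6, and 7 of the 10 members were matched in that table. Capitals mark every match, on either strand, to 6 motifs: GGGCGG (the GC box), CCAAT (the CCAAT box), TATAAA (the TATA box), TGACGT (part of the cAMP response element), CACGTG (an E box) and TGATGNAA (the core of the amino acid response element). Gfpt1 lies at chr6:87042596-87042895 on the plus strand, Gfpt2 at chr11:49793905-49794204 on the plus strand, Uap1 at chr1:170174915-170175214 on the minus strand and Gne, at the first of its 2 starts, at chr4:44084128-44084427 on the minus strand.
Gfpt1: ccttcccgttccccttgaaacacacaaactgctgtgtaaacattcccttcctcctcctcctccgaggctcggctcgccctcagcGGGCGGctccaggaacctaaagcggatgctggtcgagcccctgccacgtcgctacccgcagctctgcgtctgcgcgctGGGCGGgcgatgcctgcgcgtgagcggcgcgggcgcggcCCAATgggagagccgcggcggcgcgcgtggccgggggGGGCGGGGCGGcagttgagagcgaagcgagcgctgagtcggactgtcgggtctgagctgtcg
Gfpt2: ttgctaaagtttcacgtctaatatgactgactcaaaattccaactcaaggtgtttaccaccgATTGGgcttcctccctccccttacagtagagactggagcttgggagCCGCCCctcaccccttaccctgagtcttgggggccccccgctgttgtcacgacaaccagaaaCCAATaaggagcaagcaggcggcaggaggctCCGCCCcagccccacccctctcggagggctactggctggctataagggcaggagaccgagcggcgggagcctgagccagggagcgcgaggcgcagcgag
Uap1: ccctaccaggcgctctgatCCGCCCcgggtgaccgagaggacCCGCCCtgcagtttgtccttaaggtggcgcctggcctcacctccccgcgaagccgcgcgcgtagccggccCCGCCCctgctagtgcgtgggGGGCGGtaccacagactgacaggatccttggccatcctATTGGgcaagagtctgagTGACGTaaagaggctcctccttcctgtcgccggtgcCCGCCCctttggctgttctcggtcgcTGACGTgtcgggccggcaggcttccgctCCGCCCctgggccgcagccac
Gne: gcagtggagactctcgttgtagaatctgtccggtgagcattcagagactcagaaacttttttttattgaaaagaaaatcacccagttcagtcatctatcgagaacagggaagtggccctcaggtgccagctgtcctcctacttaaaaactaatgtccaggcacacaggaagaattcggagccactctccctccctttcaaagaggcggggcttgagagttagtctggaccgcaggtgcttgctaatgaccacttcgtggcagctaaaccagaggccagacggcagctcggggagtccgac

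The Gfpt1 window held 4 GC boxes, of which the last pair overlap, and 1 CCAAT. Gfpt2 held 2 GC boxes and 2 CCAAT matches. Uap1 had 6 GC boxes, 1 CCAAT and 2 TGACGT matches, one of them just after the start, and neither Gne window held any of the 6 motifs. Among all 32851 promoters of the same length, 35.7% held GGGCGG, 37.4% CCAAT, 13.6% TATAAA, 7.51% TGACGT, 7.15% CACGTG and 3.97% TGATGNAA. GC content was 70.3% for Gfpt1, 60.7% for Gfpt2, 69.0% for Uap1 and 51.3% for Gne, beside a median of 52.7% over all promoters. A match describes the letters in the window and was not tied to any factor here.

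In the GENCODE vM21 annotation of GRCm38 the hexosamine members lie at chr6:87042846-87092197 (Gfpt1, plus strand), chr11:49794178-49838613 (Gfpt2, plus), chr14:45376334-45404913 (Gnpnat1, minus), chr9:86554377-86571842 (Pgm3, minus) and chr1:170141938-170174957 (Uap1, minus). Of the sialic acid members 3 share chromosome 4, namely Slc35a1 (chr4:34663257-34687438, minus), Gne (chr4:44034075-44084177, minus) and Nans (chr4:46489248-46503632, plus), while Nanp lies at chr2:151029685-151039398 (minus) and Cmas at chr6:142756686-142775714 (plus). Exons of Gnpnat1, Pgm3 and Nans overlap those of Styx, Dop1a and Trim14 on the opposite strand, and Nanp exons overlap Ninl on the same strand. The library kit marked strand, but whether the counting used it was not given in the sources used here, so reads of these pairs may not have been separated.

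Total counts per library were 12.7 to 20.5 M in the knockdown, 19.5 to 23.8 M in MDA-MB-231 and 4.27 to 7.67 M in the co-culture set. Phgdh itself fell in shPHGDH, from 167, 172 and 163 to 20.7, 20.195 and 21.7 CPM (counts scaled to each library's TMM-adjusted total), 7.99-fold lower (edgeR adjusted p = 5.16e-28). In MDA-MB-231, PHGDH ran against the label: its level was 15.5, 15.6 and 18.3 CPM in control and 5.98, 4.53 and 5.71 CPM in the libraries labelled PHGDH-overexpressing, a fall of 1.61 on the log2 scale (edgeR adjusted p = 5.75e-10). Every direction drawn from those libraries below is therefore one of the libraries so labelled. Of 12 endothelial markers, all were at or above 5 CPM in each Bend3 library, with sums of 10097 to 12924 CPM, beside 102 to 218 CPM in the tumour libraries. Of 10 epithelial markers, 9 were at or above 5 CPM in both 4T1 libraries, and 4 in EMT6.5 alone and 3 with Bend3. EMT6.5 lacked Esrp1 and Cldn7 (0 counts) and had Cdh1 at 0.123 and 0.818 CPM. It held the keratins Krt18 (386 and 367 CPM), Krt7 (237 and 118 CPM) and Krt8 (154 and 128 CPM), with epithelial sums of 791 and 621 CPM. Its fibroblast marker sum was 2894 CPM alone and 1783 CPM with Bend3. Most of that was Col1a1 (1339 and 744 CPM) and Col1a2 (1521 and 944 CPM), while Dcn, Lum and Col3a1 were at 0.

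Levels of different genes were ranked only per exon length and only in mouse cells, as TPM (counts per exon length, scaled to the same sum in each library). In the 3 shSCR libraries Uap1 was the most abundant member, at 119, 110 and 113 TPM, followed by Nans at 95.002, 93.6 and 87.0 TPM. Cmas (60.6, 58.4 and 56.0 TPM), Slc35a1 (53.9, 56.0 and 57.9 TPM) and Gfpt1 (52.7, 54.0 and 53.1 TPM) came next, and in this order Cmas overlapped Slc35a1 and Slc35a1 overlapped Gfpt1. Gne stood at 30.9 to 34.3 TPM, Pgm3 at 19.6 to 20.3 TPM, Gnpnat1 at 11.8 to 12.4 TPM and Nanp at 3.02 to 4.61 TPM. Gfpt2 had 0 to 2 counts in each of the 6 knockdown libraries, so Gfpt1 was the transaminase counted in these cells. In shPHGDH the same order held by mean, with Uap1 at 98.2 ± 2.01 TPM and Nans at 77.9 ± 2.34 TPM (SD, n = 3 each).

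After PHGDH knockdown 5 of the 10 members changed, by small amounts. Gnpnat1 and Cmas rose and Uap1, Gne and Nans fell, 4 were not called and Gfpt2 was too low to test. Among all 11568 genes tested 30.1% were called higher and 29.6% lower, so 2 higher and 3 lower of 9 tested members were shares near the background. The groups did not overlap for 7310 of the 11568 genes, so a lack of overlap, given below for single members, was common. In bulk libraries fewer cells with a transcript and less of it per cell cannot be told apart. The median log2 fold change of the tested members was -0.01, and that of all genes was -0.01.

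**Figure D1:**
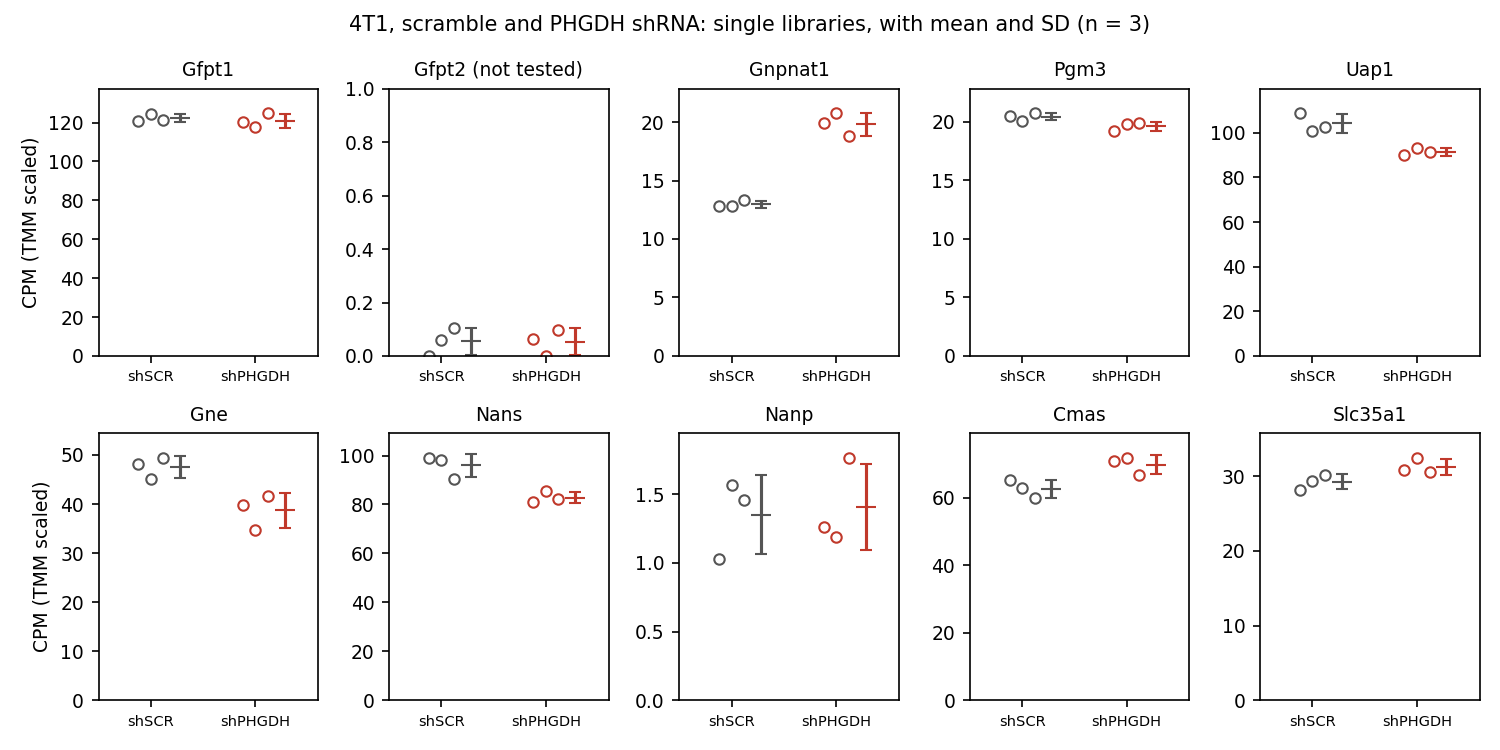
TMM-scaled CPM of the 10 members (y axis, from 0) in 3 shSCR (grey) and 3 shPHGDH (red) libraries of 4T1. Open circles are single libraries and the bar beside them is the mean with its SD (n = 3). Gnpnat1 stands higher in all 3 shPHGDH libraries (18.8 to 20.8 against 12.8 to 13.3 CPM), Uap1, Gne and Nans stand lower, and Gfpt1 overlaps.

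Among the hexosamine members, the transaminase Gfpt1 was at 121, 124 and 121 CPM in shSCR and 120, 118 and 125 CPM in shPHGDH. The groups overlapped and it was not called (log2 -0.01, SE 0.03, edgeR adjusted p = 0.751). The acetyltransferase Gnpnat1 was at 12.8, 12.8 and 13.3 CPM in shSCR and at 19.9, 20.8 and 18.8 CPM in shPHGDH. All 3 knockdown libraries lay above all 3 controls, and Gnpnat1 was 1.52-fold higher (log2 0.60, SE 0.08, edgeR adjusted p = 1.15e-07). It lies on chromosome 14, where the median log2 fold change was 0.51 over 371 other genes. Its 50 tested neighbours on either side had a median of 0.52, with 42 called higher and 0 lower by edgeR. The difference between Gnpnat1 and that local median was 0.08, about the size of the SE, and what part the chromosome had in the rise was not tested.

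The mutase Pgm3 was at 20.5, 20.1 and 20.7 CPM in shSCR and 19.196, 19.8 and 19.9 CPM in shPHGDH. The groups did not overlap, but it was not called (log2 -0.06, SE 0.07, edgeR adjusted p = 0.474), beside a median of 0.20 over its 50 neighbours on chromosome 9. Uap1, which makes UDP-GlcNAc, was at 109, 101 and 103 CPM in shSCR and 89.9, 93.2 and 91.4 CPM in shPHGDH. All knockdown libraries were below all controls, and Uap1 fell by 0.19 on the log2 scale (SE 0.04, edgeR adjusted p = 5.02e-05). Its 50 neighbours on chromosome 1 had a median of -0.01, with 10 called higher and 16 lower.

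Among the sialic acid members, Gne, which carries out the pathway's first reactions, was at 48.2, 45.0 and 49.5 CPM in shSCR and 39.8, 34.7 and 41.6 CPM in shPHGDH. Gne fell by 0.29 on the log2 scale (SE 0.06, edgeR adjusted p = 0.000151) with no overlap between groups. The synthase Nans was at 99.2, 98.1 and 90.5 CPM in shSCR and 80.9, 85.5 and 82.0 CPM in shPHGDH, a fall of 0.21 (SE 0.04, edgeR adjusted p = 3.04e-05), again with no overlap. With lane as a covariate the Nans value was -0.13 (edgeR adjusted p = 0.0167), and it was still called. Both lie on chromosome 4, where the median of 708 other genes was -0.22. The 50 neighbours of Gne had a median of -0.27, with 0 called higher and 34 lower by edgeR, and those of Nans a median of -0.23, with 1 higher and 31 lower. Gne differed from its local median by -0.02 and Nans by 0.01, and what part the chromosome had in both falls was not tested.

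The carrier Slc35a1 lies on the same chromosome and was not called. It was at 28.2, 29.4 and 30.2 CPM in shSCR and 30.8, 32.5 and 30.6 CPM in shPHGDH (log2 0.09, SE 0.06, edgeR adjusted p = 0.2005), while its 50 neighbours had a median of -0.31, with 2 called higher and 41 lower. Cmas, which activates sialic acid, was at 65.1, 63.0 and 59.95 CPM in shSCR and 70.8, 71.95 and 66.8 CPM in shPHGDH. All 3 knockdown libraries were above all controls, and Cmas rose by 0.15 on the log2 scale (SE 0.04, edgeR adjusted p = 0.003), beside a local median of 0.06 on chromosome 6. The phosphatase Nanp had 15 to 36 counts per library, 1.03 to 1.57 CPM in shSCR and 1.19 to 1.77 CPM in shPHGDH, and a change was not detectable at this depth (log2 0.08, SE 0.26).

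In MDA-MB-231 6 of the 10 members changed in the libraries labelled PHGDH-overexpressing. GNPNAT1, PGM3 and UAP1, which act one after the other, all fell, as did the carrier SLC35A1, while GFPT2 and GNE rose. Over all 17663 genes tested 21.6% were called higher and 22.9% lower, beside 2 higher and 4 lower of the 10 members. The groups did not overlap for 9265 of the 17663 genes, so a lack of overlap was common here too. With library totals in place of TMM scaling, 38.4% of all calls were higher instead of 48.5%, and the members' counts stayed at 2 and 4. The median log2 fold change was -0.31 over the 5 hexosamine members and 0.13 over the 5 sialic acid members, beside -0.01 over all genes.

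**Figure D2:**
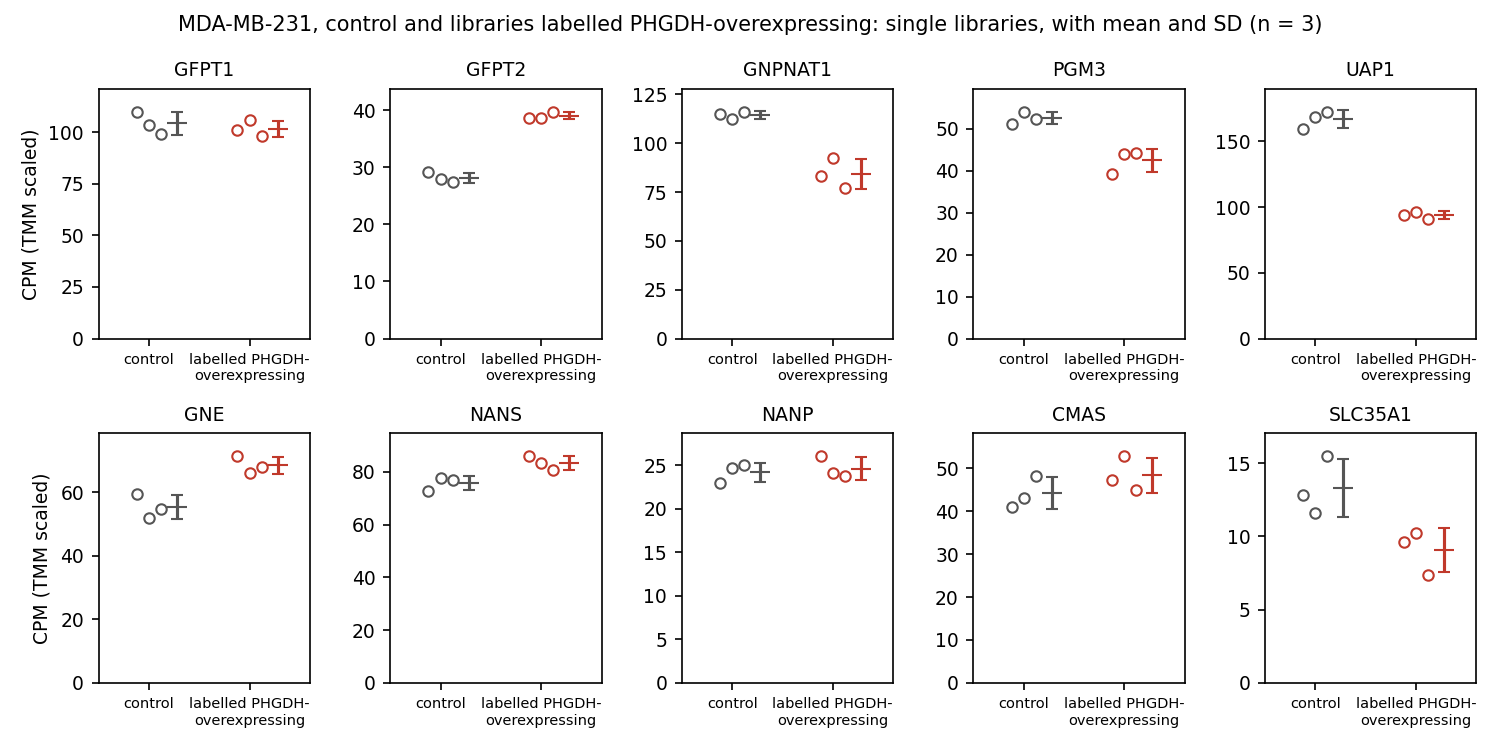
TMM-scaled CPM of the 10 members (y axis, from 0) in 3 control libraries of MDA-MB-231 (grey) and the 3 libraries labelled PHGDH-overexpressing (red), with the mean and SD beside them (n = 3). UAP1 drops from 159 to 173 CPM to 90.5 to 96.6 CPM, GNPNAT1, PGM3 and SLC35A1 are lower, and GFPT2 and GNE are higher with no overlap.

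UAP1 had the widest change of the members. It was at 159, 169 and 173 CPM in control libraries and 94.2, 96.6 and 90.5 CPM in the labelled libraries, 1.78-fold lower (log2 -0.83, SE 0.06, edgeR adjusted p = 2.24e-10), and the groups were far apart relative to their spread. GNPNAT1 was at 115, 112 and 116 CPM in control libraries and 83.2, 92.4 and 77.3 CPM in the labelled libraries. The groups did not overlap and it fell by 0.44 on the log2 scale (SE 0.07, edgeR adjusted p = 1.34e-05). PGM3 was at 51.2, 54.0 and 52.4 CPM in control libraries and 39.2, 43.9 and 44.2 CPM in the labelled libraries, a fall of 0.31 (SE 0.07, edgeR adjusted p = 0.00133) without overlap.

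Of the 2 transaminase isozymes GFPT2 was called and GFPT1 was not. GFPT1 was at 110, 103 and 99.1 CPM in control libraries and 101, 106 and 97.9 CPM in the labelled libraries, overlapping and not called (log2 -0.04, SE 0.06, edgeR adjusted p = 0.671). GFPT2, the isozyme with 0 to 2 counts in the 4T1 knockdown libraries, was at 29.2, 27.9 and 27.5 CPM in control libraries and 38.7, 38.6 and 39.7 CPM in the labelled libraries. All 3 labelled libraries lay above all controls, and GFPT2 was 1.38-fold higher (log2 0.47, SE 0.07, edgeR adjusted p = 1.82e-05). For each 100 GFPT1 CPM there were 26.6, 27.0 and 27.7 GFPT2 CPM in control libraries and 38.3, 36.5 and 40.6 in the labelled libraries. This ratio is not corrected for length and is compared only between groups. It was 27.1 ± 0.585 against 38.5 ± 2.05 (SD, n = 3 each) and did not overlap, and the exact two-sided permutation test gave p = 0.1, the smallest that 3 against 3 libraries allow.

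Of the sialic acid members, GNE was at 59.3, 51.7 and 54.6 CPM in control libraries and 71.3, 66.0 and 67.9 CPM in the labelled libraries. It rose by 0.31 on the log2 scale (SE 0.07, edgeR adjusted p = 0.00102) with no overlap. NANS was at 72.6, 77.7 and 76.9 CPM in control libraries and 86.1, 83.6 and 80.9 CPM in the labelled libraries, which did not overlap but missed the threshold (log2 0.14, SE 0.06, edgeR adjusted p = 0.0755). NANP, at 22.96 to 25.01 CPM in control libraries and 23.7 to 26.1 CPM in the labelled libraries, was readily counted in these human cells and was not called (log2 0.03, SE 0.08). CMAS, at 41.1 to 48.3 and 44.9 to 52.9 CPM, overlapped and was not called either (log2 0.13, SE 0.08).

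SLC35A1, the last step before the Golgi, was at 12.8, 11.6 and 15.5 CPM in control libraries and 9.64, 10.2 and 7.38 CPM in the labelled libraries. All 3 labelled libraries lay below all controls, and it was 1.46-fold lower (log2 -0.55, SE 0.13, edgeR adjusted p = 0.00146).

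**Figure D3:**
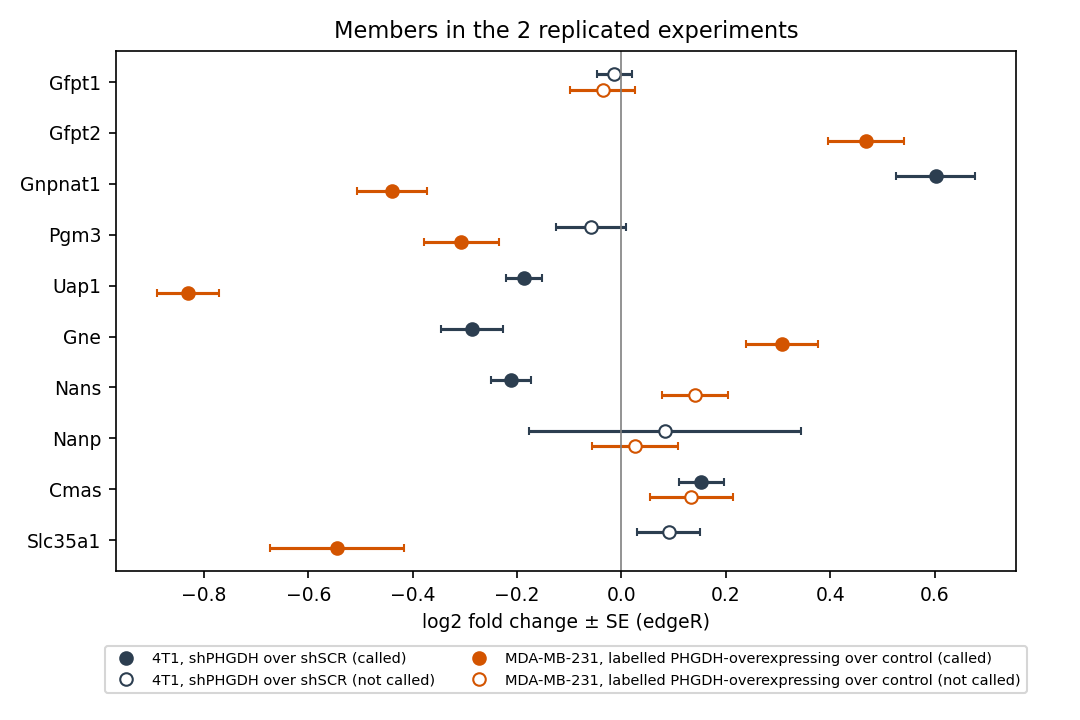
Log2 fold change (x axis) with its SE for each member (y axis) in shPHGDH over shSCR 4T1 libraries (dark) and in MDA-MB-231 libraries labelled PHGDH-overexpressing over control (orange). Filled points were called at an edgeR adjusted p under 0.05 and open points were not. Uap1 is lower in both (-0.19 and -0.83), while Gnpnat1 (0.60 and -0.44) and Gne (-0.29 and 0.31) lie on opposite sides. The 50 neighbours of Gnpnat1 and Gne in 4T1, not drawn, had medians of 0.52 and -0.27.

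PHGDH mRNA was lower in the second group of both experiments, which share no libraries. The members' values are set side by side only as a description, since species, line and construct differ. UAP1 was the member called in both in the same direction, lower in each (-0.19 in 4T1 and -0.83 in MDA-MB-231). Gnpnat1 (0.60 and -0.44) and Gne (-0.29 and 0.31) were called in both in opposite directions. In 4T1 the 50 neighbours of Gnpnat1 and Gne had medians of 0.52 and -0.27, close to these members' own values. Neighbours were not examined in MDA-MB-231. Pgm3, Gfpt2 and Slc35a1 were called in MDA-MB-231 and not in 4T1, where Gfpt2 was not tested, and Nans and Cmas in 4T1 and not in MDA-MB-231. Of all genes tested 30.1% were called higher and 29.6% lower in 4T1, and 21.6% and 22.9% in MDA-MB-231. The share of genes called in both experiments was not counted here, so these matches and mismatches are described without a background. A difference between the lines was not tested. GFPT1, which sets the entry into the pathway, was called in neither.

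In the co-culture set each condition had 1 library, so there was no test: ratios of a co-cultured line to the same line alone are given with 95% exact binomial counting intervals, which cover counting error only. A gene was counted as higher or lower when its TMM log2 CPM ratio with a prior count of 2 was past 1.5-fold, among the 10742 genes that averaged 5 CPM or more over the 7 libraries. All but Gfpt2 and Nanp, 8 members, did so. In 4T1 with Bend3, 2 of the 8 were higher and 3 lower, where 24.46% of all genes were higher and 24.18% lower. In EMT6.5 with Bend3, 0 were higher and 4 lower (13.81% and 16.61% of all genes). In Bend3 with 4T1, 1 was higher and 1 lower (12.6% and 7.196%), and in Bend3 with EMT6.5, 0 were higher and 1 lower (11.38% and 7.82%). Both Bend3 comparisons used the same library of Bend3 alone. The median log2 ratio of all genes lay between -0.02 and 0.05 in the 4 comparisons.

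**Figure D4:**
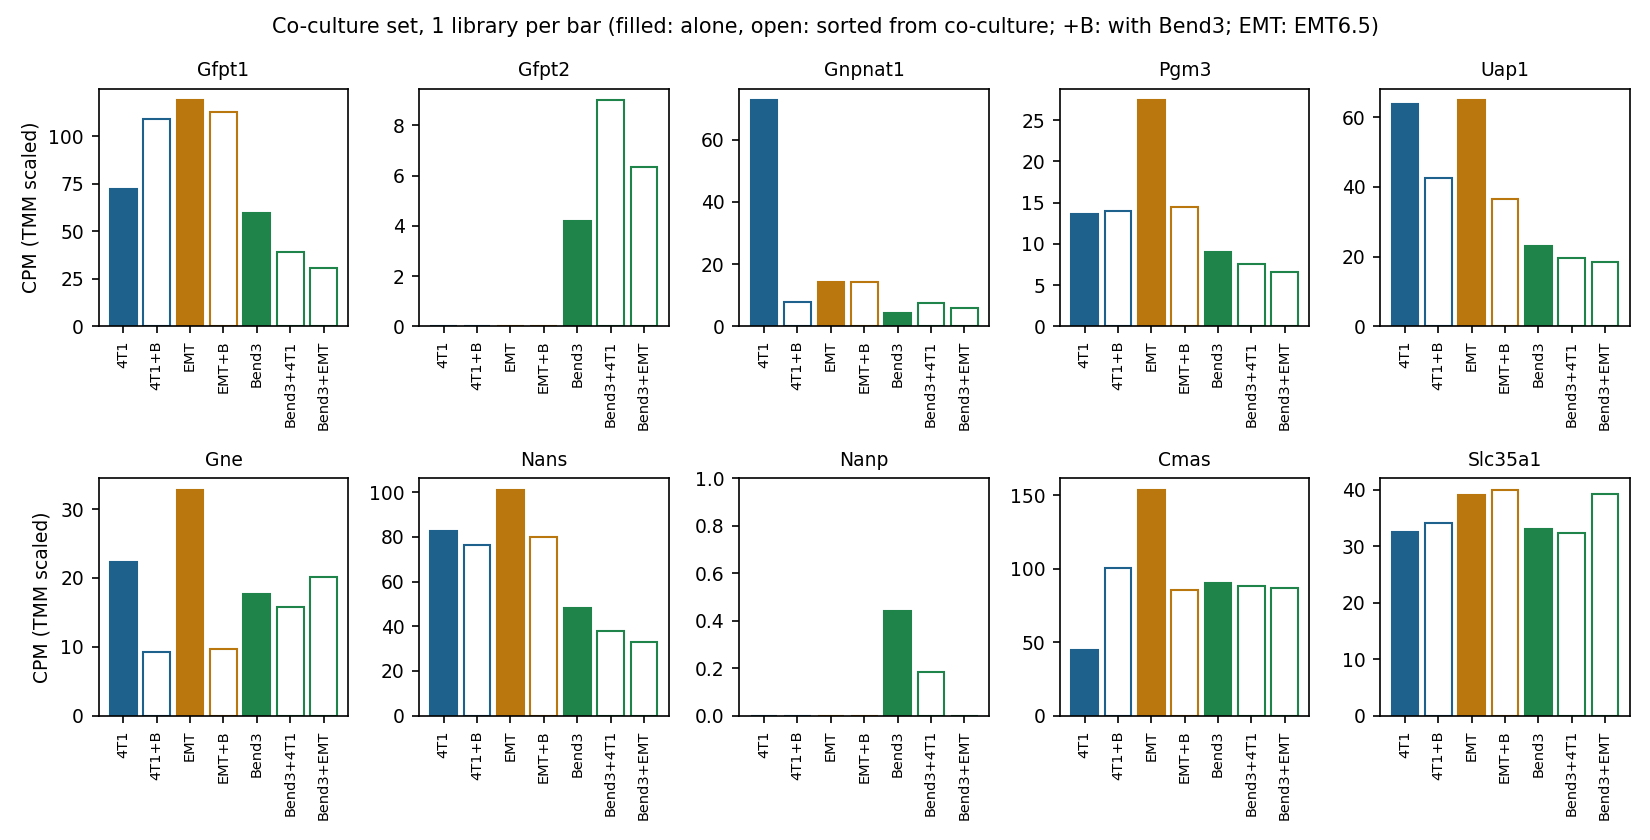
TMM-scaled CPM (y axis, from 0) of the 10 members in the 7 co-culture libraries, 1 library per bar, with lines alone filled and lines sorted from co-culture open. Gnpnat1 stands at 72.7 CPM in 4T1 alone and at most at 14.3 CPM elsewhere, Gne is lower in both co-cultured tumour lines, and Gfpt2 is seen in the Bend3 libraries.

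Of the isozymes of the first step, Gfpt1 was counted in all 7 libraries and Gfpt2 in those of Bend3. Gfpt1 was at 72.1 CPM in 4T1 alone and 108.9 CPM in 4T1 with Bend3, a ratio of 1.51 (1.31 to 1.75). In the shSCR 4T1 libraries, which were scaled apart, it was at 121 to 124 CPM. In EMT6.5 Gfpt1 was at 119 and 113 CPM alone and with Bend3, a ratio of 0.948 (0.852 to 1.05). In Bend3 it was lower, at 59.4 CPM alone, 38.9 CPM with 4T1 and 30.5 CPM with EMT6.5, with ratios of 0.655 (0.545 to 0.787) and 0.514 (0.421 to 0.625). Gfpt2 had 0 counts in all 4 tumour libraries, which allows up to 0.370 to 0.677 CPM (3 counts per library), and 19, 49 and 35 counts in Bend3 alone, with 4T1 and with EMT6.5. These were 4.20, 9.002 and 6.36 CPM, and the ratios were 2.14 with 4T1 (1.24 to 3.86) and 1.51 with EMT6.5 (0.843 to 2.80), the latter with an interval that holds 1. For each 100 Gfpt1 counts Bend3 had 7.06 Gfpt2 counts alone, 23.1 with 4T1 and 20.8 with EMT6.5. Epithelial markers summed to 1.99 CPM in Bend3 alone, 49.6 CPM with 4T1 and 7.63 CPM with EMT6.5, where 4, 2 and 7 of the 10 were at 0. The keratin Krt18 was at 0.442, 15.6 and 4.36 CPM in these libraries, and fibroblast markers, which EMT6.5 carried, summed to 7.51, 10.8 and 35.6 CPM. The part of these transcripts in the Bend3 ratios was not tested.

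Gnpnat1 was far higher in 4T1 alone than in any other library of the set. It had 326 counts (72.7 CPM) in 4T1 alone and 35 counts (7.89 CPM) in 4T1 with Bend3, a ratio of 0.109 (0.0743 to 0.154), or 9.21-fold lower. In EMT6.5 it was at 14.3 CPM both alone and with Bend3 (ratio 0.999, 0.732 to 1.36). Bend3 held 4.42, 7.53 and 5.996 CPM alone, with 4T1 and with EMT6.5. The ratio with 4T1 was 1.70 (0.976 to 3.07), past 1.5-fold but with an interval that holds 1. The low ratio in 4T1 rests on the single library of 4T1 alone: in the knockdown table, which was scaled apart, Gnpnat1 was at 12.8 to 13.3 CPM in 4T1 with scramble shRNA. The 6 neighbouring genes on chromosome 14 had ratios of 0.339 to 1.26, lowest for Ero1l (69.2 CPM alone and 23.5 CPM with Bend3) and highest for the overlapping Styx, with Psmc6 at 0.740 and Fermt2 at 0.723. What part the neighbourhood had in the Gnpnat1 ratio was not tested.

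Pgm3 and Uap1 were lower in EMT6.5 with Bend3. Pgm3 was at 27.4 CPM alone and 14.5 CPM with Bend3 (ratio 0.529, 0.399 to 0.694), while in 4T1 it was at 13.6 and 13.98 CPM (1.03, 0.710 to 1.49). Uap1 was at 64.8 CPM in EMT6.5 alone and 36.6 CPM with Bend3 (0.564, 0.474 to 0.670). In 4T1 it was at 63.8 and 42.4 CPM (0.665, 0.550 to 0.802), which lay on the 1.5-fold line. In Bend3, Pgm3 held 9.06, 7.53 and 6.54 CPM and Uap1 22.98, 19.7 and 18.5 CPM alone, with 4T1 and with EMT6.5, and all 4 intervals of the ratios held 1.

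**Figure D5:**
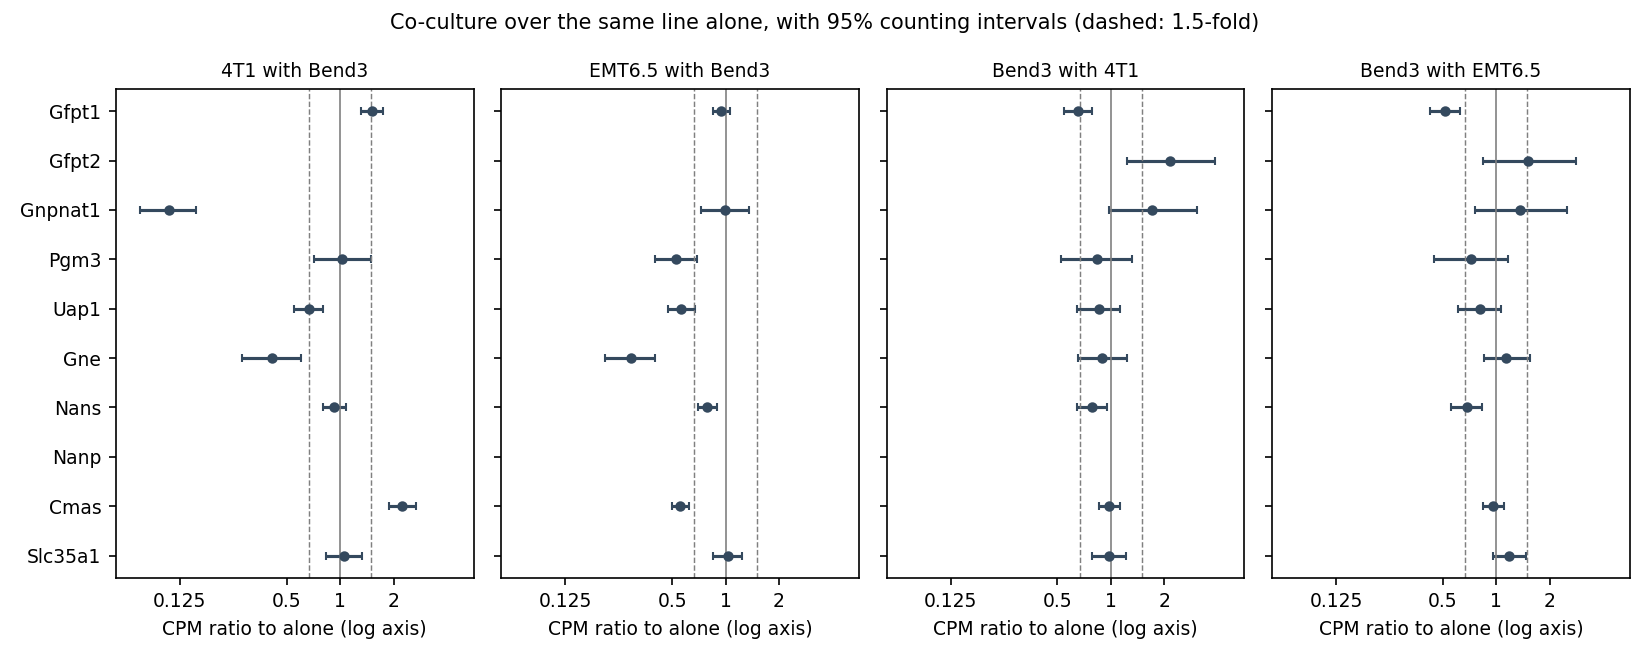
CPM ratio of each co-cultured line to the same line alone (x axis, log scale) for each member (y axis), 1 library per condition, with 95% counting intervals and dashed lines at 1.5-fold. Nanp is not drawn, nor is Gfpt2 in tumour cells at 0 counts. Gne lies left of the line in both tumour lines (0.415 and 0.292) and near 1 in Bend3, and Cmas lies right in 4T1 (2.24) and left in EMT6.5 (0.556).

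Gne, the gateway to sialic acid, was lower in both tumour lines grown with Bend3. It was at 22.3 CPM in 4T1 alone and 9.25 CPM with Bend3 (ratio 0.415, 0.281 to 0.602) and at 32.8 and 9.61 CPM in EMT6.5 (0.292, 0.210 to 0.4000). In Bend3 it was at 17.7 CPM alone, 15.8 CPM with 4T1 and 20.17 CPM with EMT6.5, with ratios of 0.894 (0.651 to 1.23) and 1.14 (0.848 to 1.54). Phgdh was lower in the same tumour libraries, from 14.5 to 4.74 CPM in 4T1 (ratio 0.327, 0.190 to 0.541). In EMT6.5 it went from 6.17 to 2.04 CPM (0.331, 0.150 to 0.661), with 10 counts in co-culture. Both 4T1 ratios rest on the single library of 4T1 alone. The shSCR 4T1 libraries, scaled apart, held 163 to 172 CPM of Phgdh and 45.0 to 49.5 CPM of Gne, above 4T1 alone. The sum of endothelial markers was 102 CPM alone and 218 CPM with Bend3 in 4T1, and 120 and 129 CPM in EMT6.5, beside 10097 CPM in Bend3 alone, whose own Gne level was 17.7 CPM. The part of partner RNA in these ratios was not tested.

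Cmas differed between the tumour lines in direction. It was at 44.6 CPM in 4T1 alone and 100.1 CPM with Bend3, a ratio of 2.24 (1.90 to 2.67), and at 154 CPM in EMT6.5 alone and 85.4 CPM with Bend3, a ratio of 0.556 (0.496 to 0.621). In Bend3 it stood at 89.9, 88.0 and 86.7 CPM alone, with 4T1 and with EMT6.5, with ratios of 0.978 (0.856 to 1.12) and 0.964 (0.843 to 1.103). The lines thus ranged from 44.6 to 154 CPM when alone and from 85.4 to 100.1 CPM in co-culture. In the shSCR 4T1 libraries, which were scaled apart, Cmas was at 59.95 to 65.1 CPM.

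Nans and Slc35a1 had no ratio past 1.5-fold. Nans was at 82.5 and 76.5 CPM in 4T1 (0.926, 0.797 to 1.08), at 101 and 80.1 CPM in EMT6.5 (0.791, 0.6998 to 0.894), and at 48.4, 38.0 and 33.1 CPM in Bend3 alone, with 4T1 (0.786, 0.647 to 0.955) and with EMT6.5 (0.683, 0.558 to 0.836). Slc35a1 was the most even member, between 32.3 and 40.1 CPM in all 7 libraries, with every interval holding 1. Nanp had 0 to 2 counts in each library and no ratio could be drawn.

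Per exon length, the order of the members differed between the single libraries of the lines, and also between 4T1 alone and shSCR 4T1. In 4T1 alone Nans (55.8 TPM), Uap1 (49.3 TPM) and Gnpnat1 (47.6 TPM) led, and in EMT6.5 alone Cmas (94.8 TPM) was first, followed by Nans (64.2 TPM). In Bend3 Cmas was first in all 3 libraries (49.5, 48.6 and 50.6 TPM), followed by Slc35a1 (37.5, 36.7 and 47.1 TPM). Uap1, the first in the knockdown libraries, stood at 14.9, 12.8 and 12.7 TPM in Bend3. The 10 members summed to 268 TPM in 4T1 alone, 331 in EMT6.5 alone and 162 in Bend3 alone, and to 221, 223, 149 and 158 TPM in co-cultured 4T1, EMT6.5, Bend3 with 4T1 and Bend3 with EMT6.5. These are single libraries, and the sums are relative to all other transcripts of a library.

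Gnpnat1, Pgm3 and Gfpt2 ranged at least 4-fold over the 7 libraries, with values of 0 set to 3 counts. The genes whose TMM log2 CPM followed them most closely, by Pearson's r over the 7 libraries among 10742 genes, were for Gnpnat1 Mafg (r = 0.992), Usp36 (0.991) and Mak16 (0.990), all highest in 4T1 alone. For Pgm3 they were Fzr1 (0.992), Fads2 (0.991) and Snrpg (0.987), all highest in EMT6.5 alone. For Gfpt2 they were Armcx6, Rtp3 and Ccdc184 (0.998, 0.998 and 0.997), with 0 or near 0 CPM in the tumour libraries. With 7 libraries of 3 lines such values are common: 245, 234 and 1043 genes had r over 0.9 with Gnpnat1, Pgm3 and Gfpt2.

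Genes around the pathway were described by 3 lists, to be read beside the 30.1% of all genes called higher and 29.6% lower in the knockdown and the 21.6% and 22.9% in MDA-MB-231. Of 15 genes for hexosamine input, salvage and turnover, 3 rose and 3 fell in the knockdown (13 tested, median log2 -0.04), shares below those of all genes, with the phosphoglucomutase Pgm2 higher (0.37) and the deaminase Gnpda2 (-0.47) and the UDP-glucose maker Ugp2 (-0.42) lower. In MDA-MB-231 8 rose and 5 fell (14 tested, median 0.23). GNPDA1, which returns glucosamine 6-phosphate to glycolysis, was higher (0.77), the hexokinase HK1 was higher (0.64) and HK2 lower (-0.71), and GPI was higher (0.49).

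Of 18 genes that carry or use UDP-GlcNAc, 11 rose and 3 fell in the knockdown (17 tested, median 0.32), beside 30.1% and 29.6% of all genes. The hyaluronan synthase Has2 rose from 135.5 to 215 CPM (0.67), the branching enzymes Gcnt2 (0.84) and Mgat5 (0.72) rose, and the O-GlcNAcase Mgea5 fell (-0.12). Gcnt1, counted among the 11, had a mean of 0.0401 CPM in shSCR and 2.85 CPM in shPHGDH (at most 59 counts in a library). It passed the low-count filter only through the shPHGDH libraries, so its rise is not read as a result. In MDA-MB-231 4 rose and 8 fell (17 tested, median -0.19), beside 21.6% and 22.9% of all genes, with HAS2 (-0.98) and MGAT4A (-1.57) lower, MGAT4B higher (0.53) and the O-GlcNAc transferase OGT lower (-0.23). The median over all genes tested was -0.01 in both experiments.

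Of 10 genes for sialic acid turnover and modification, 3 rose and 1 fell in the knockdown (7 tested, median -0.03; 30.1% and 29.6% of all genes), and 3 rose and 0 fell by edgeR in MDA-MB-231 (7 tested, median 0.22; 21.6% and 22.9% of all genes). In the knockdown the O-acetyltransferase Casd1 rose (0.20) and the sialidase Neu3 fell (-0.65). Neu2, counted among the 3 that rose there, was at 0.124 CPM in shSCR and 0.998 CPM in shPHGDH (at most 19 counts in a library). It passed the low-count filter only through the shPHGDH libraries, so its rise is not read as a result. SIAE (0.45), which removes O-acetyl groups, and CTSA (0.28), the protective partner of the lysosomal sialidase, were higher in MDA-MB-231.

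In co-culture the lists were described by counts past 1.5-fold, to be read beside the shares of all genes higher and lower: 24.46% and 24.18% in 4T1, 13.81% and 16.61% in EMT6.5, 12.6% and 7.196% in Bend3 with 4T1 and 11.38% and 7.82% in Bend3 with EMT6.5. Of the 15 input, salvage and turnover genes 13 averaged 5 CPM or more over the 7 libraries. In 4T1 3 were past 1.5-fold higher and 2 lower, in EMT6.5 2 and 3, in Bend3 with 4T1 1 and 0 and in Bend3 with EMT6.5 1 and 1. The hexokinase Hk2 was lower in both tumour lines with Bend3 (log2 ratios -1.04 and -0.65). It was the gene counted as higher in both Bend3 comparisons, at 3.31 and 2.73 CPM with 4T1 and EMT6.5. Its 0.884 CPM in Bend3 alone was near the floor of 0.663 CPM (3 counts). Hk2 passed the 5 CPM filter through the tumour libraries (73.1 to 173 CPM), so its Bend3 ratios give no result. The part of partner RNA in them was not tested. Of the 18 UDP-GlcNAc genes 16 averaged 5 CPM or more over the 7 libraries. In 4T1 1 was higher and 1 lower (Mgat5 at 2.12 and Gcnt2 at -1.20), in EMT6.5 2 and 3, and in each Bend3 comparison 1 and 1. The higher gene in both Bend3 comparisons was Has2, at 0 CPM alone and 2.57 and 0.363 CPM with 4T1 and EMT6.5. The last value is below the floor of 0.545 CPM (3 counts). Has2 passed the filter through the tumour libraries (10.5 to 31.4 CPM), so its Bend3 ratios give no result. Of the 10 sialic acid turnover genes 5 averaged 5 CPM or more over the 7 libraries. Siae (1.27) and Ctsa (1.23) were higher in 4T1, and Ctsa was higher (0.74) and Neu1 lower (-1.33) in EMT6.5. None was past 1.5-fold in Bend3 with 4T1, and Neu1 was lower (-0.59) in Bend3 with EMT6.5.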

How the data were processed

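Raw gene counts, as deposited, were analysed. Per the submitters' processing notes the authors used Trim Galore 0.5.0, HISAT2 2.1.0 and HTSeq, with GRCm38 as the mouse build. The build for human reads, the gene models and how reads were counted are not given in the sources used here. Per the labels' protocols, RNA came from TRIzol extracts, co-cultured cells were sorted before extraction, and stranded mRNA libraries were read as 50 bp single-end reads. The knockdown table held 16 library columns, of which 10 matched no sample of these labels and were not used here. Controls are named SCR in the MDA-MB-231 table and were taken as the control samples of the labels.

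Each replicated experiment was fitted over all genes with edgeR 4.0.16 in R 4.3.3 (filterByExpr, TMM, quasi-likelihood F-test). Calls were made at an adjusted p under 0.05 (Benjamini-Hochberg, over all genes tested). The fit and the counting interval were tried on simulated data. There 200 genes were changed, far fewer than the 6905 and 7864 called in the data, so it cannot give the error rate of these calls. Displayed CPM use TMM library sizes. Phgdh was read first. Co-culture ratios, with 1 library each, carry 95% exact binomial intervals and no test. Without molecular identifiers, intervals and floors of 3 counts cover counting error only. In the co-culture set 48.2% to 55.3% of entries aligned to several places.

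TPM used exon lengths from GENCODE vM21, which 23334 of 24421 knockdown symbols and 55394 of 55573 co-culture genes had. Human lengths were not used here, so levels of human genes were not ranked. Neighbourhoods were 50 tested genes in order of start position, equally many on each side of a member, and 11139 of 11568 genes were placed. These windows were wide, with starts from 31598730 to 50824059 on chromosome 14 for Gnpnat1. On chromosome 4 the windows of Gne (41714798 to 47353222) and Nans (43631935 to 55527143) overlapped, so their medians share genes. The named genes were the 10 members, Phgdh, and from each list the called genes with the largest change and the gene with the highest CPM, of which some are not reported here; Hk2 and the other list genes given for co-culture were picked after their values were seen, as were the neighbours of Gnpnat1. The members and lists were chosen with earlier results of these data known. Alternatives were DESeq2 1.42.0, library totals, no low-count filter, a replicate block, lane (knockdown only), and leaving out each library.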

Additional observations from a re-analysis of the deposited data

Results flagged for a closer look

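Cmas and Gfpt1 had co-culture ratios on opposite sides of 1 in 2 lines, with neither counting interval holding 1. Cmas was higher in 4T1 with Bend3 (2.24) and lower in EMT6.5 with Bend3 (0.556), a difference of 2.01 between the log2 ratios. Gfpt1 was higher in 4T1 with Bend3 (1.51) and lower in Bend3 with 4T1 (0.655), a difference of 1.21. With 1 library per condition these differences were not tested. Both 4T1 ratios rest on the single library of 4T1 alone, with Gfpt1 at 72.1 and Cmas at 44.6 CPM. In the shSCR 4T1 libraries, which were scaled apart, Gfpt1 was at 121 to 124 CPM and Cmas at 59.95 to 65.1 CPM.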

How the results depend on the processing

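Every one of the 208 log2 fold changes of members under the alternatives kept its direction where called and its side of the threshold, as did all 64 co-culture ratios recomputed with library totals or another prior count. Members called stayed at 2 higher and 3 lower in the knockdown and 2 higher and 4 lower in MDA-MB-231 under DESeq2, library totals, no filter, the replicate block and each library left out, and in the knockdown also with lane as a covariate and in lane 6 alone. Nans in the knockdown was -0.13 in both lane fits instead of -0.21 (adjusted p = 0.0167 and 0.0128, edgeR). Cmas in the knockdown ranged from 0.11 to 0.22 (highest adjusted p = 0.0256 in edgeR and DESeq2 fits), and PGM3 in MDA-MB-231 from -0.37 to -0.25 (highest 0.0217). With genes of a mean of at least 1 CPM, 2 members were past 1.5-fold higher in Bend3 with 4T1 instead of 1, since Gfpt2 then entered. Same-numbered libraries gave no sign of pairing (correlations of deviations -0.06 to 0.05, beside -0.05 to 0.07 for differently numbered ones). With 3 libraries per group this cannot settle whether cultures were paired. With the replicate block 6585 genes were called in the knockdown instead of 6905 and 7761 in MDA-MB-231 instead of 7864. Lane was partly confounded with group, since 2 shSCR libraries ran apart. In the co-culture set Nanp had 0 to 2 counts per library. Its 0 counts in 4T1 alone and with Bend3 allow up to 0.669 and 0.677 CPM (3 counts), beside 1.03 to 1.57 CPM in shSCR. What set Nanp apart between the 2 sets was not tested. Gfpt2 had 0 counts in co-culture tumour cells, as it had 0 to 2 in the deeper knockdown libraries.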
